A study of Temnothorax americanus and Temnothorax ambiguus and Temnothorax curvispinosus with 48 samples.

Results

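Names of aminopeptidases, carboxypeptidases and related proteins were carried by 44 assembled transcripts (contigs) in 5 species of Temnothorax ants. They were found among 2140 contigs with a protein name in the deposited tables of called contigs, and 339894 contigs in all. A contig was included when the first protein match in the deposited table of its species was titled an aminopeptidase, a carboxypeptidase, a leukotriene A-4 hydrolase or an insulin-degrading enzyme. Per the paper, contigs of all assemblies were annotated. In the deposited tables used here, only contigs that the study itself called as different between the raiding and the non-raiding state carry a protein name. The contrast between the states therefore chose the members, and all values of that contrast are given as a description, so that the calls printed below support nothing. Contigs just outside the study's call have no name in these tables. By the names, 40 of the 44 contigs encode metallopeptidases, and the other 4 are 3 serine carboxypeptidases and 1 dipeptidyl aminopeptidase-like protein. T. pilagens held 15 members, T. ambiguus 12, T. duloticus 6, T. longispinosus 6 and T. americanus 5, while T. curvispinosus, with 41 named contigs, held 0.

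Each library was made from 6 whole workers pooled, 2 taken from each of 3 colonies, and every species had 4 such libraries in either state. Per the study's methods workers of both states came from the same colonies, but the labels do not say which libraries share them. T. americanus, T. duloticus and T. pilagens are slavemakers, whose workers raid nests of related ants, and T. longispinosus, T. curvispinosus and T. ambiguus are their hosts. Raiding slavemakers were taken during a raid, and non-raiding slavemakers outside the raiding season, in autumn; workers of both states had been selected as infertile by dissection of the ovaries. Host workers in the raiding state were defending the nest, whereas those in the non-raiding state were foragers taken before any raid, so season in slavemakers and task in hosts cannot be told apart from the state. No agent was given and no gene was altered, and the ages of the workers are not given in the sources used here. Library titles begin with BR in the non-raiding and with DR in the raiding state. A contig whose deposited name carries a library number is written with L and that number. Per the paper, libraries were joined in pairs for the first step of the assembly, so such a contig need not come from that library. The study left out 6 libraries as outlying, and the values below rest on the 42 that it kept unless a removed library is named.

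Aminopeptidases take single residues from the front end of a peptide, and carboxypeptidases from its tail; most of them hold a zinc ion in the active site. Aminopeptidase N, leukotriene A-4 hydrolase, and puromycin-sensitive and glutamyl aminopeptidase belong to 1 zinc peptidase family, M1, while insulin-degrading enzyme belongs to another. In insects, membrane-bound aminopeptidase N and zinc carboxypeptidases of the A and B type are best known from the midgut, where they finish the digestion of proteins that trypsins have begun. Serine carboxypeptidases use a serine in place of the metal.

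Expression is given as counts-per-million (CPM), the reads of a contig relative to the TMM-scaled size of its library, and is not corrected for length, so levels are compared between states of 1 contig and not between genes. The kept libraries held 5.94 to 49.1-million counts with a median of 19.5-million. Log2 fold changes are above 0 where the raiding state was higher, and their standard error (SE) comes from edgeR's quasi-likelihood fit over all contigs of the species that passed a filter on low counts. Of the members, 36 passed that filter and 8 did not. Members matched 26 protein records of other insects, and in 5 cases 2 contigs of 1 species matched the same record, so several contigs can be parts or copies of 1 gene that share its reads. Because whole bodies were pooled, fewer cells of a type and less RNA per cell cannot be told apart. States follow the sample labels: letter tags in slavemaker contig names may stand for the opposite state, no source explains them, and all slavemaker directions would turn if the labels had been exchanged. Raiding libraries of T. duloticus have a BR heading in the count table and were matched by number.

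Members were mostly lower during raids in slavemakers and mostly higher during nest defense in hosts. Of 26 contigs in slavemakers, 20 had a lower and 6 a higher mean CPM in the raiding state, and of 18 contigs in hosts 17 were higher and 1 was lower. The background for these counts is the split of all named contigs, which were called by the study like the members. By their mean CPM, 1250 of 1784 (70.1%) were lower in raiding workers in the 3 slavemakers, against 76.9% of the members, and 180 of 315 (57.1%) were higher in defenders in T. longispinosus and T. ambiguus, against 94.4% of the members. Among slavemakers 65.2% of the named contigs were lower in T. americanus, 79.3% in T. duloticus and 68.5% in T. pilagens. Of the members 4 of 5, 4 of 6 and 12 of 15 were lower in the same order. The pooled share of lower members was thus near that of all names in slavemakers. In hosts 65.8% of the named contigs were higher in T. longispinosus and 54.2% in T. ambiguus, against 6 of 6 and 11 of 12 members. The median log2 fold change of tested members was −1.33 in T. americanus, −0.94 in T. duloticus, −0.56 in T. pilagens, 3.19 in T. longispinosus and 2.74 in T. ambiguus. Over all tested contigs, which unlike the members were not chosen by the contrast, the median was 0.00 in T. americanus, 0.01 in T. duloticus and 0.02 in T. pilagens. In hosts the same median was 0.01 in T. longispinosus and −0.01 in T. ambiguus. All 5 insulin-degrading enzyme contigs were higher in the raiding state, in slavemakers as in hosts, and they made up 3 of the 6 higher contigs of the slavemakers.

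**Figure D1:**
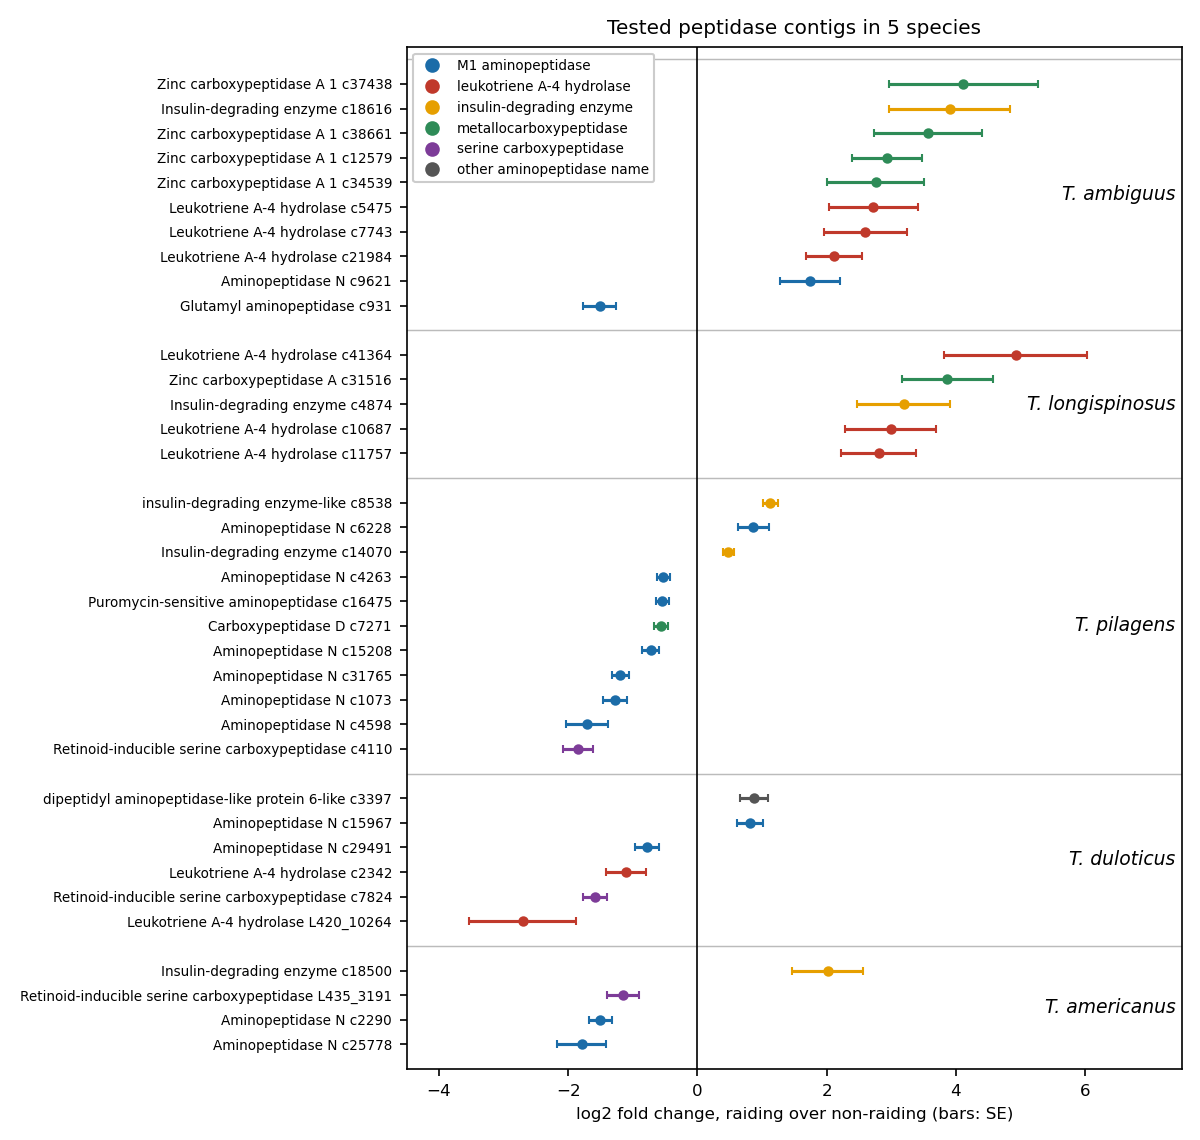
Log2 fold change (raiding over non-raiding) of the 36 tested members, grouped by species and coloured by class, with bars for 1 SE. Most slavemaker points lie left of 0 (median −0.78) and host points right of 0 (median 2.93), with glutamyl aminopeptidase at −1.51 the exception in hosts.

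At a Benjamini-Hochberg adjusted p under 0.05 in the quasi-likelihood test, 10 of the 11 tested members passed in T. pilagens, where 2.88% of all tested contigs did. Of these 8 were lower (1.94% of all contigs) and 2 higher (0.94% of all contigs). In T. americanus 1 of 4 tested members passed (0.805% of all contigs), aminopeptidase N c2290. In T. duloticus 1 of 6 passed (0.363% of all contigs), retinoid-inducible serine carboxypeptidase c7824. In T. longispinosus 0 of 5 and in T. ambiguus 0 of 10 passed with edgeR, where 0% of all contigs did, whereas 5 of 5 and 10 of 10 had an unadjusted p under 0.05 (3.78% and 8.05% of all contigs), which the choice of the members by that contrast fixes. Leaving out any 1 library lowered the count in T. pilagens to between 3 (without BR_681 or DR_684) and 6 (without BR_680, BR_683 or DR_686). Over all contigs of T. pilagens 1105 of 38402 were called, against 351 of 36351 without BR_681 and 248 of 40991 without DR_684. The 1 call of T. americanus was gone without DR_437, DR_438 or DR_440, where calls over all contigs fell from 325 to 64, 22 and 74. That of T. duloticus was gone without BR_419, BR_420 or DR_421, where calls over all contigs fell from 151 to 46, 35 and 45.

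Other fits called more members and more contigs in all. DESeq2 called 4 members in T. americanus (4.56% of all contigs), 5 in T. duloticus (4.69%), 5 in T. longispinosus (0.261%) and 10 in T. ambiguus (1.41%). edgeR's likelihood ratio test called 4 (2.74%), 6 (2.25%), 5 (0.217%) and 9 (0.9%) in the same order, and without the filter on low counts 4 (2.08%), 4 (1.57%), 6 (0.319%) and 11 (0.796%). With all 8 libraries the quasi-likelihood test called 2 members in T. americanus (2.37%). Since the study's own calls chose the members, nothing is read from these counts.

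Among tested members the CPM of the states did not overlap for 8 lower and 3 higher of 11 in T. pilagens (9.47% and 7.87% of all tested contigs), for 3 and 1 of 4 in T. americanus (6.46% and 7.23%), and for 3 and 1 of 6 in T. duloticus (4.97% and 4.01%). In hosts they did not overlap for 5 higher of 5 in T. longispinosus (5.22%), and for 8 higher and 1 lower of 10 in T. ambiguus (2.83% and 2.53%). These counts too follow from the choice of the members.

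Aminopeptidase N was the most frequent name, with 15 contigs, 14 of them in slavemakers, where 12 were lower in raiding workers. The T. pilagens contig c31765 held the most reads of any member, and its match ran over 8175 bases of the contig. In the 4 non-raiding libraries it stood at 1206, 1313, 1338 and 1651 CPM, and in the 3 kept raiding libraries at 567, 552 and 668 CPM. All raiding libraries lay below all non-raiding ones, with means of 1377 ± 191 CPM (SD, n = 4) and 596 ± 63.3 CPM (SD, n = 3), and the log2 fold change was −1.19 (SE 0.13). A T. americanus contig matched to the same record, c25778, was at 2.87, 3.91, 4.15 and 6.26 CPM in the non-raiding state and at 0.897, 1.15 and 1.65 CPM in raids. Its states did not overlap either, with a log2 fold change of −1.79 (SE 0.37), but its match spanned 321 bases only.

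T. pilagens c1073 stood at 288, 472, 491 and 468 CPM in non-raiding workers and at 186, 171 and 171 CPM in raiding workers. The non-raiding library BR_680 lay well below the other 3 of its state but above all raiding libraries, and the log2 fold change was −1.27 (SE 0.18). For c15208 the means were 157 ± 22.2 CPM (SD, n = 4) and 94.1 ± 9.0 CPM (SD, n = 3), and the log2 fold change was −0.72 (SE 0.13). The T. duloticus contig of the same match, c29491, was at 132, 79.3, 122 and 108 CPM and then at 81.9, 61.3, 62.6 and 51.2 CPM. Here the states overlapped, since DR_421 was above BR_418, while the log2 fold change was close to that of c15208, at −0.78 (SE 0.18). In T. pilagens, c4598 went from 17.0, 12.1, 14.0 and 21.1 CPM to 4.98, 2.78 and 6.86 CPM. With −1.71 (SE 0.33) it had the largest negative log2 fold change among the aminopeptidase N contigs of this species that were tested. The remaining tested contig that was lower, c4263, had a log2 fold change of −0.53 (SE 0.10).

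In T. americanus, aminopeptidase N c2290 was at 115, 74.8, 85.6 and 106 CPM outside the raiding season. During raids it was at 38.7, 33.4 and 28.4 CPM, so that the lowest non-raiding library was still well above the highest raiding one. Its means were 95.2 ± 18.2 CPM (SD, n = 4) and 33.5 ± 5.16 CPM (SD, n = 3), which gives −1.501 on the log2 scale (SE 0.18).

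Both aminopeptidase N contigs that were higher in raiding slavemakers matched 1 and the same record, from the leafcutter ant Acromyrmex echinatior. In T. duloticus c15967 was at 15.3, 19.7, 17.6 and 11.5 CPM and then at 30.6, 34.5, 21.3 and 26.3 CPM, a log2 fold change of 0.81 (SE 0.20). In T. pilagens c6228 was at 9.77, 15.9, 10.3 and 17.8 CPM and then at 22.8, 29.5 and 20.5 CPM, a log2 fold change of 0.87 (SE 0.24). In neither species did the states overlap. One more contig with this match, T. pilagens c31014, went the other way, with 85 counts over the 4 non-raiding libraries and 0 over the 3 raiding ones. It was thus at least 22.8-fold lower in raiding workers (floor of 3 counts over the group), yet 65.7% of its scaled counts came from 1 library, BR_681, without which the bound was 10.2-fold. Its states overlapped, with a non-raiding library at 0.

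In the host T. ambiguus 1 called contig was named aminopeptidase N, c9621, and it was higher in defenders. Its levels were 3.28, 4.15, 2.75 and 3.19 CPM in foragers and 5.79, 14.8, 4.48 and 19.8 CPM in defenders, without overlap, although DR_694 was only just above BR_689. The log2 fold change was 1.75 (SE 0.47). The slavemaker contig of the same record was T. pilagens c1073, described above with −1.27.

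Among the other aminopeptidases of this family, puromycin-sensitive aminopeptidase c16475 of T. pilagens was lower in raiders. This enzyme is a cytosolic aminopeptidase in mammals and flies. Its means were 116 ± 9.70 CPM (SD, n = 4) and 78.7 ± 8.15 CPM (SD, n = 3), and the log2 fold change was −0.54 (SE 0.10). Glutamyl aminopeptidase, which in mammals removes acidic residues, was the single host member that was lower in defense. T. ambiguus c931 was at 16.1, 16.1, 8.44 and 15 CPM in foragers and at 4.29, 4.48, 4.37 and 6.29 CPM in defenders, a log2 fold change of −1.51 (SE 0.25). The states did not overlap, with BR_690 apart from the other foragers and DR_695 apart from the other defenders.

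**Figure D2:**
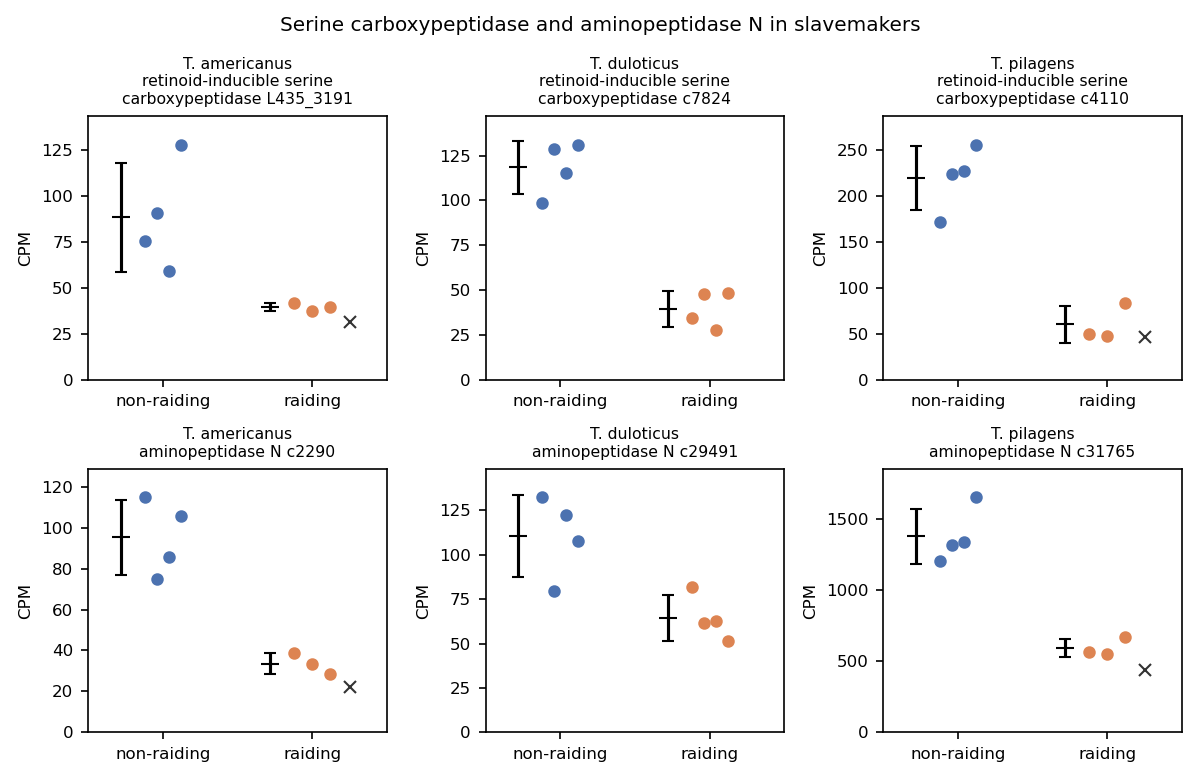
CPM per library of retinoid-inducible serine carboxypeptidase (upper row) and of the aminopeptidase N contig with the highest mean CPM (lower row) in 3 slavemakers. Dots are kept libraries, crosses libraries removed by the study, and bars the mean and SD of kept libraries; raiding means lie below non-raiding means in all panels, and dots overlap in the panel of T. duloticus c29491 only.

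Leukotriene A-4 hydrolase is a zinc enzyme that works as an aminopeptidase and, in mammals, also makes the lipid mediator leukotriene B4. It was named for 11 contigs, of which all 9 host contigs were higher in defenders and both T. duloticus contigs were lower in raiders. In T. longispinosus c11757 was at 1.70, 0.804 and 2.22 CPM in foragers and at 4.23, 14.4 and 14.5 CPM in defenders. The log2 fold change was 2.80 (SE 0.58), and the lowest defender library was DR_429. The T. ambiguus contig of the same record, c5475, was at 0.514, 1.87, 4.0 and 4.44 CPM in foragers and at 10.5, 26.1, 6.14 and 29.4 CPM in defenders. Here too no library crossed, with DR_694 the lowest defender, and the log2 fold change was 2.73 (SE 0.69).

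T. longispinosus c10687 was at 0.437, 0.321 and 1.62 CPM and then at 3.30, 9.22 and 6.58 CPM, a log2 fold change of 2.99 (SE 0.70). Of its 50 forager counts 35 were in BR_428, without which the value was 4.04. T. longispinosus c41364 had only 5 counts over 3 forager libraries and 181 over 3 defender libraries, and its fold change, 4.92 on the log2 scale (SE 1.11), was the largest among the tested members. All 5 forager counts were in BR_428, so that without it a fitted value of 8.80 stands against foragers at 0 and is no bound, while leaving out any other library gave 4.37 to 5.24. In T. ambiguus c21984 was higher by 2.11 (SE 0.43) and c7743 by 2.60 (SE 0.64) on the log2 scale, the latter by 3.25 without BR_690. In these 4 contigs as well, no forager library reached a defender library. In T. duloticus, by contrast, c2342 was at 35.2, 34.2, 28.9 and 33.2 CPM outside the season and at 14.7, 12.1, 26.1 and 7.87 CPM in raids. The raiding libraries were more scattered than the non-raiding ones, DR_423 coming closest to them, and the log2 fold change was −1.11 (SE 0.31). The second T. duloticus contig, L420_10264, had 212 counts in non-raiding and 23 in raiding workers, a log2 fold change of −2.70 (SE 0.83).

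Zinc carboxypeptidases of the A type, enzymes that remove bulky residues from the tail of a peptide, were named in hosts only, with 1 contig in T. longispinosus and 4 in T. ambiguus. T. longispinosus c31516 was at 4.23, 8.52 and 9.03 CPM in foragers and at 41.2, 64.1 and 214 CPM in defenders. The states did not overlap, but DR_432 alone held 62.8% of its scaled counts, and the log2 fold change was 3.87 (SE 0.70), or 2.85 without that library. In T. ambiguus c37438 was at 0.450, 1.22, 1.44 and 2.01 CPM in foragers and at 0.677, 21.2, 5.0 and 62.6 CPM in defenders. This was the host contig whose states overlapped, since defender library DR_692 lay within the foragers, while DR_695 held 66.1% of its scaled counts. Its log2 fold change of 4.11 had an SE of 1.15, and it ranged from 2.79 (without DR_695) to 4.52 when single libraries were left out. T. ambiguus c34539 was at 0.193, 0.570, 1.5 and 2.66 CPM and then at 6.09, 12.4, 2.71 and 12.7 CPM. It had a log2 fold change of 2.76 (SE 0.75), with DR_694 barely above BR_691, without which it was 3.46. The other 2 contigs, c12579 and c38661, had log2 fold changes of 2.93 (SE 0.54) and 3.57 (SE 0.84).

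In slavemakers the metallocarboxypeptidases were 2 contigs of T. pilagens, both lower in raiders. Carboxypeptidase D, which in mammals trims basic residues from peptides in the secretory pathway, was at 147, 143, 136 and 177 CPM and then at 93.6, 110.0 and 99.2 CPM (c7271). Its states did not overlap, with a log2 fold change of −0.56 (SE 0.11). Carboxypeptidase B, a digestive enzyme in mammals that removes basic residues, had 42 counts over 4 non-raiding libraries and 0 over 3 raiding libraries (L683_18391), at least 11.3-fold lower in raiding workers (floor of 3 counts over the group) and at least 7.63-fold without BR_681.

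Insulin-degrading enzyme, which in mammals and flies cleaves insulin and other small peptides, was named for 5 contigs in 4 species. Of these, 4 contigs, 1 in each species, matched the same record of the carpenter ant Camponotus floridanus. In T. americanus c18500 was at 1.41, 0.319, 0.840 and 2.24 CPM and then at 4.42, 4.31 and 5.0 CPM, a log2 fold change of 2.01 (SE 0.55). In T. pilagens c14070 was at 46.8, 46.4, 42.2 and 48.6 CPM and then at 65.8, 57 and 68.0 CPM, a log2 fold change of 0.48 (SE 0.09). Libraries of a state lay close together here, so that this was the smallest change among the tested members and still without overlap.

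In T. longispinosus c4874 was at 0.534, 0.161 and 0.695 CPM in foragers and at 1.48, 6.62 and 4.81 CPM in defenders, a log2 fold change of 3.19 (SE 0.72). In T. ambiguus c18616 had 0 counts in 2 of 4 forager libraries and 0.438 and 0.237 CPM in the others, against 1.88, 3.13, 1.35 and 4.60 CPM in defenders. Its log2 fold change was 3.90 (SE 0.93), or 4.85 without BR_690. The fifth contig, T. pilagens c8538, matched an insulin-degrading enzyme-like protein of the wasp Nasonia vitripennis and was at 18.0, 17.1, 13.9 and 18.9 CPM and then at 38.2, 35.6 and 36.5 CPM. Its log2 fold change was 1.13 (SE 0.12), and none of the 5 contigs had libraries that overlapped between states.

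**Figure D3:**
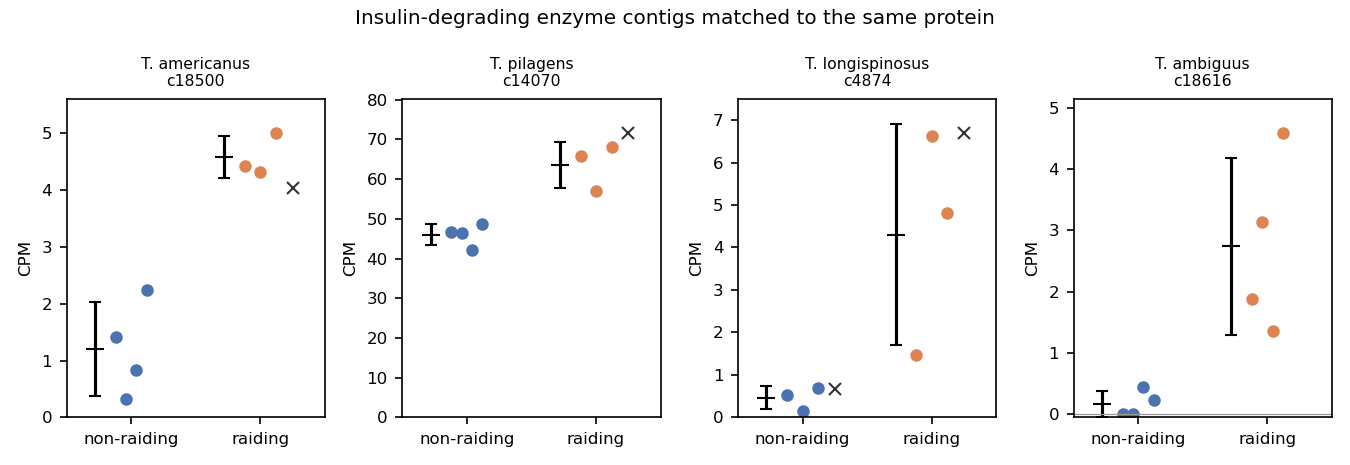
CPM per library of the 4 insulin-degrading enzyme contigs that matched 1 record, in 2 slavemakers and 2 hosts. Dots are kept libraries, crosses libraries removed by the study, and bars the mean and SD of kept libraries; every raiding dot lies above every non-raiding dot, and the scales differ between panels (42.2 to 68.0 CPM in kept libraries of T. pilagens).

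Retinoid-inducible serine carboxypeptidase is named after a rat gene whose expression rises with retinoids. Among the called contigs it was named once in each slavemaker and in no host, and the 3 contigs matched the same record. A host contig of this protein that was not called would have no name here. In T. americanus L435_3191 was at 75.5, 90.5, 58.9 and 128 CPM and then at 41.6, 37.1 and 39.7 CPM, a log2 fold change of −1.15 (SE 0.24). In T. duloticus c7824 was at 98.7, 129, 115 and 131 CPM and then at 34.2, 47.6, 27.6 and 48.3 CPM, a log2 fold change of −1.59 (SE 0.19). In T. pilagens c4110 was at 171, 224, 226 and 256 CPM and then at 49.7, 47.5 and 83.5 CPM, a log2 fold change of −1.85 (SE 0.23). In none of the 3 species did a raiding library reach a non-raiding one. Whether the fold changes differ between the species was not tested.

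The dipeptidyl aminopeptidase-like contig c3397 of T. duloticus belongs to a family whose mammalian member lacks peptidase activity and is a partner of potassium channels. It was at 19.3, 13.6, 23.5 and 17.6 CPM and then at 42.6, 34.5, 22.7 and 36.3 CPM. The states overlapped slightly, DR_423 lying below BR_419, with a log2 fold change of 0.88 (SE 0.22).

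Contigs of different species could be set side by side where they matched the same record, as 9 records did in at least 2 species. Within the slavemakers or within the hosts, tested contigs of 1 record had the same sign in all records. Between slavemakers and hosts, the insulin-degrading enzyme record had the same sign, and 3 records had opposite signs. These were 2 leukotriene A-4 hydrolase records, one with T. duloticus c2342 at −1.11 against T. longispinosus c10687 at 2.99 and T. ambiguus c21984 at 2.11, the other with T. duloticus L420_10264 at −2.70 against T. ambiguus c7743 at 2.60. The third was the aminopeptidase N record of T. pilagens c1073 (−1.27) and T. ambiguus c9621 (1.75). All contigs were in the record because they had been called, so a record lacks the species in which its contig was not called.

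**Figure D4:**
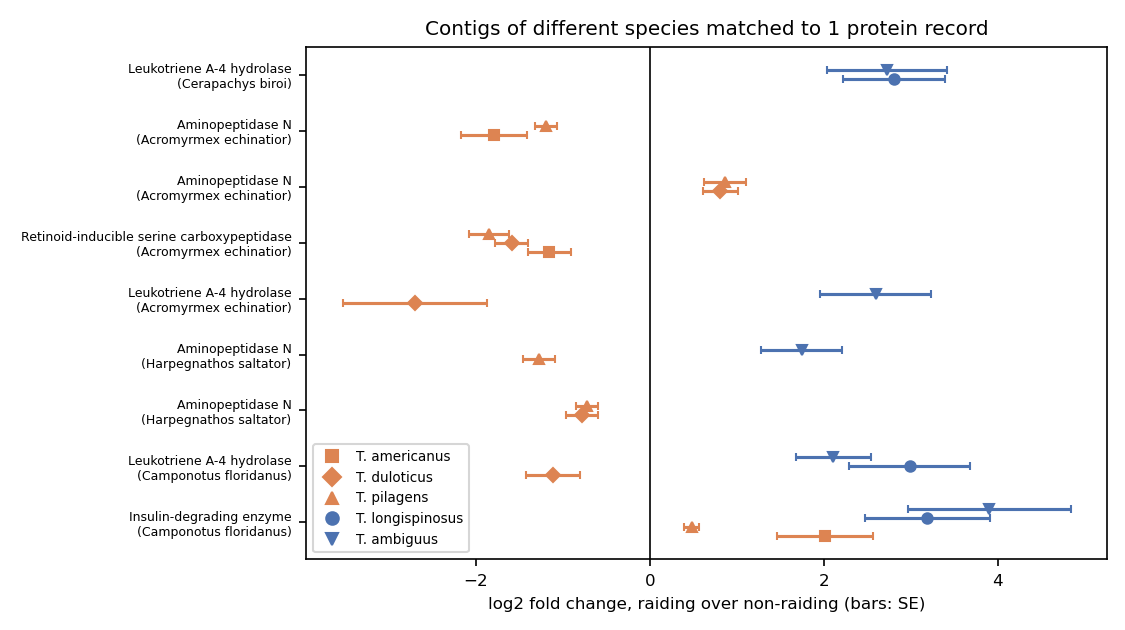
Log2 fold change (raiding over non-raiding, bars 1 SE) of tested contigs that matched 1 record in at least 2 species, with 1 row per record named by protein and matched insect. Slavemaker symbols are orange and host symbols blue; both colours lie right of 0 in the insulin-degrading enzyme row, and on opposite sides in 3 rows.

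The 8 members that did not pass the filter had 42 to 144 counts over all kept libraries and short matches, with a median of 442.5 bases against 1744.5 bases for tested members. Of these, 4 had 0 counts in every raiding library (T. americanus L440_43134 and T. pilagens c31014, c31813 and L683_18391) and 1, T. longispinosus L429_51585, had 0 counts in every forager library and 57 in defenders, at least 17.0-fold higher in defense. Of these 57 counts 37 were in DR_432, without which the bound was 9.78-fold, and the removed forager library BR_425 held 4 counts. T. americanus L440_43134, an aminopeptidase N contig, had 48 counts outside the season, of which BR_436 held 82.7% after scaling; it was at least 15.4-fold lower in raiders, and 6.40-fold without BR_436. T. pilagens c31813 was at least 12.9-fold lower in raiders, and 6.38-fold without BR_683, which held 30 of its 48 counts. T. pilagens c23998 had 139 counts in non-raiding and 3 in raiding workers. The states of L440_43134, c31014, c31813 and c23998 overlapped, since each had a non-raiding library at 0. The removed raiding library DR_687 held 1 count of c31014 and 2 of either of c31813 and L683_18391. The T. ambiguus leukotriene A-4 hydrolase contigs c35209, with 22 and 122 counts, and L692_40682, with 1 and 47, were higher in defenders. In all, 8 of 44 members had more than 50% of their scaled counts in 1 library.

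Members also varied among libraries of the same state. In T. ambiguus 10 of the 11 contigs that were higher in defense were lowest in DR_694 among the 4 defender libraries, and 10 of 11 were highest in DR_693 or DR_695. In T. longispinosus 5 of 6 were lowest in DR_429 among the kept defender libraries, and among foragers BR_428 was highest for all 5 contigs with counts. In T. pilagens BR_680 was lowest in the non-raiding state for 9 of the 12 contigs that were lower in raiders. Pairs of members, each taken as the deviation of log2 CPM from the mean of its state, had a median Pearson correlation of 0.55 in T. ambiguus (66 pairs over 8 libraries) and 0.47 in T. longispinosus (15 pairs over 6 libraries). The median was 0.39 in both T. pilagens (105 pairs, 7 libraries) and T. americanus (10 pairs, 7 libraries), and 0.01 in T. duloticus (15 pairs, 8 libraries). Over pairs of tested members alone, the medians were 0.57 (45 pairs), 0.65 (10), 0.35 (55), 0.34 (6) and 0.01 (15) in the same order of species. Among the other tested and named contigs they were 0.03, 0.16, 0.04, 0.02 and 0.02. Those contigs were of any function and were not matched to the members in direction, and in T. longispinosus they numbered only 30. Leukotriene A-4 hydrolase c5475 and zinc carboxypeptidase A 1 c34539 of T. ambiguus had a correlation of 0.97, and leukotriene A-4 hydrolase c11757 and insulin-degrading enzyme c4874 of T. longispinosus 0.98. Contigs of a pair share the libraries, their depth and their scaling, and some share a gene.

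**Figure D5:**
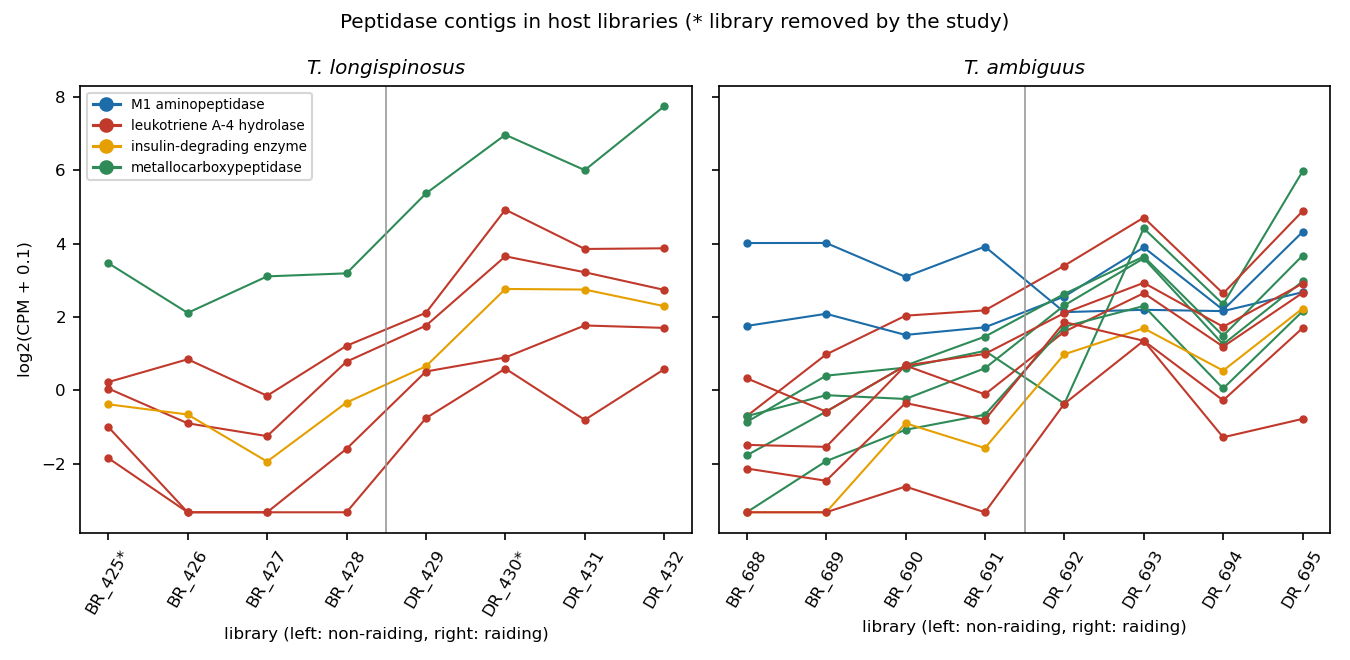
Log2 (CPM + 0.1) of the 6 members in T. longispinosus and the 12 in T. ambiguus in all 8 libraries of each, foragers left and defenders right of the grey line; lines join values of 1 contig and an asterisk marks libraries removed by the study. Most lines are higher on the right, and in T. ambiguus most dip together at DR_694, with glutamyl aminopeptidase (4.29 to 6.29 CPM in defenders) lower on the right.

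The libraries that the study removed took no part in the choice of the members and give a separate reading of the same contigs in 3 species. Of 32 values of members in these libraries, 27 lay on the side of their own state, taken from the midpoint between the state means of log2 CPM, and 10 lay within the range of the kept libraries of that state. In T. americanus DR_439 4 of 5 members were on the side of the raiding state, against 62.5% of all tested contigs and 89.6% of the tested contigs that the study had called. In T. pilagens DR_687 13 of 15 were, against 56.9% and 82.4%. In T. longispinosus BR_425 4 of 6 members were on the forager side, against 48.9% and 63.6%, and in DR_430 6 of 6 were on the defender side, against 53.7% and 72.7%. The counts of members include those that did not pass the filter on low counts, whereas the shares cover only contigs that passed it. For the well covered members, DR_439 gave 22.0 CPM of aminopeptidase N c2290 and 31.4 CPM of serine carboxypeptidase L435_3191, and DR_687 gave 441 CPM of aminopeptidase N c31765 and 46.3 CPM of serine carboxypeptidase c4110, all below the kept raiding libraries. DR_430 gave 30.3 CPM of leukotriene A-4 hydrolase c11757, above all kept libraries, and 125 CPM of zinc carboxypeptidase A c31516. The 5 exceptions were T. americanus c25778, which at 4.15 CPM in DR_439 was at its non-raiding level, and 4 contigs of few counts, T. pilagens c31813 and L683_18391 and T. longispinosus c41364 and L429_51585. Of these, c31813, L683_18391 and L429_51585 had not passed the filter.

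Other named genes of the gut, the fat body and muscle were called on the same contrast, so that they differ between states follows from that choice too, and their part in the values of the members was not tested. The named trypsin and chymotrypsin contigs, enzymes that cut proteins in the gut, numbered 5 in T. ambiguus, with a summed level of 9.07 to 47.3 CPM in foragers and 137 to 1496 CPM in defenders. DR_694 was the lowest defender library for this sum, as it was for most members, and DR_695 the highest. The sum was mostly 1 Chymotrypsin-1 contig, with means of 20.2 CPM in foragers and 661 CPM in defenders. In T. longispinosus the 8 contigs summed to 31.7 to 89.5 CPM and 509 to 2635 CPM, with DR_429 the lowest and DR_432 the highest. Most of that sum came from the Chymotrypsin-1 contigs, with defender means of 1046 and 198 CPM. In T. pilagens 5 contigs summed to 274 to 457 CPM outside the season and 140 to 205 CPM in raids, and in T. duloticus 3 contigs to 113 to 423.6 CPM and 24.7 to 103 CPM. In these 4 species the sums lay on the same side as most members, although 1 chymotrypsin-like contig of T. pilagens had 0 counts in non-raiding and 38 in raiding workers. In T. americanus the sums of 4 contigs, 9.46 to 89 CPM and 79.0 to 731 CPM, overlapped and leaned the other way, which came from 1 chymotrypsin (log2 fold change 4.49, means of 13.2 and 299.6 CPM). The other 3 contigs had lower means in raiders there, Trypsin-1 with −2.18. The pair of Trypsin-7 contigs had 375 and 160 counts in non-raiding and 0 in raiding workers. Nearly all counts of either Trypsin-7 contig came from 1 non-raiding library, at 53.95 and 23.8 CPM, and the lowest non-raiding library was at 0. Neither of the 2 tested contigs of this species, Trypsin-1 and the chymotrypsin, was called. The sums were above 0 in every kept library of these 5 species.

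Sugar-digesting enzymes (maltase, alpha-glucosidase and amylase names) were lower in the raiding state in slavemakers and in a host. The 6 contigs of T. pilagens summed to 1226.5 to 1496.8 CPM in non-raiding and 507 to 557 CPM in raiding workers, the 2 of T. americanus to 115 to 173 CPM and 40.0 to 62.6 CPM, and the 2 of T. duloticus to 25.6 to 39.4 CPM and 6.80 to 12.7 CPM. The 1 contig of T. ambiguus, an alpha-amylase, was at 202 to 255 CPM in foragers and 18.1 to 123 CPM in defenders (log2 fold change −1.50), opposite to most members of that species. None of these sums overlapped between states. The quasi-likelihood test called 4 of 5 tested contigs lower in T. pilagens (1.94% of all tested contigs), both in T. americanus (0.384%) and 1 of 2 in T. duloticus (0.284%). The contig of T. ambiguus was not called. Other peptidase names, such as dipeptidyl peptidases and prolyl endopeptidase, gave 1 lower and 2 higher calls of 9 tested contigs in T. pilagens (1.94% and 0.94%). They gave 1 lower call of 2 in T. americanus (0.384%) and in T. duloticus (0.284%). Since only contigs that the study called have names here, nothing is read from the counts.

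Vitellogenins, yolk proteins made in the fat body, were named in 4 species. The 2 contigs of T. longispinosus summed to 32.3 to 58.3 CPM in foragers and 87.8 to 322 CPM in defenders, without overlap and on the side of most members. The 2 of T. duloticus went opposite ways, with a log2 fold change of −2.40 for Vitellogenin-3 and 0.93 for Vitellogenin-6, neither called. Their sum, 3802.5 to 14448 CPM in non-raiding and 599 to 2649 CPM in raiding workers, was mostly Vitellogenin-3 (a non-raiding mean of 7204 CPM, against 271 CPM of Vitellogenin-6). The 2 contigs of T. ambiguus, at 62.7 to 2201 CPM and 2041 to 11857 CPM, overlapped between states, as did the 1 contig of T. pilagens, at 25.2 to 223 CPM and 195 to 543 CPM, which leaned away from most members of its species. Among contigs with muscle names was titin, a very large protein of the contractile unit. It was called higher in raiding workers for both contigs of T. americanus (log2 fold changes of 0.94 and 0.99, with 0.421% of all tested contigs called higher). The same held for 4 of the 8 tested muscle contigs of T. pilagens (0.64 to 1.13, with 0.94% of all tested contigs called higher). The other 4 of T. pilagens were not called. Of these, troponin C (−1.70), paramyosin (−1.19) and Myosin-IB (−0.59) lay below 0 and a myosin light chain kinase (0.77) above it. The sums were 307 to 383 CPM against 630 to 664 CPM in T. americanus and 968 to 1320.5 CPM against 1349 to 1492 CPM over 9 contigs in T. pilagens. In T. duloticus 2 contigs, paramyosin and troponin C, summed to 233 to 393 CPM against 27.4 to 182 CPM with neither called, and the 1 of T. ambiguus was at 0.732 to 1.09 CPM in foragers and had 0 counts in defenders.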

How the data were processed

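Whole workers were ground in Trizol, and RNA libraries of 6 species in 2 states (48 libraries) were sequenced. FastQC, Trimmomatic, Bowtie and TopHat2 2.0.13 appear in the submitters' processing notes. Per the paper, reads were mapped to 1 de novo assembly per species and counted with eXpress. For each contig the authors deposited raw read counts that were not normalized. They also deposited a table of the contigs they had called, which holds their own log2 fold changes, average log2 CPM, p-values, likelihood ratios and match scores. Of that table, only the protein match was used here. Counts of the members were the same in both tables in T. duloticus, T. longispinosus and T. ambiguus. Summed over libraries they differed by at most 0.317% in T. americanus and 2.33% in T. pilagens, and in single libraries by at most 15.4% (3 counts or fewer where above 5%) and 5.88%. Later blocks of the count tables, 88 columns in all, were not used.

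States follow the sample titles. Each species was fitted alone on the libraries the study kept, using R 4.3.3, edgeR 4.0.16 and limma 3.58.1. Contigs passed filterByExpr (minimum count 10), sizes were scaled by TMM, and glmQLFTest was run after glmQLFit with Benjamini-Hochberg adjustment at 0.05 over all tested contigs. The size of a log2 fold change over the square root of F is its SE. Levels of single libraries are CPM on TMM-scaled sizes of all 8 libraries of the species, and log2 CPM takes a prior count of 0.5. For a state with 0 counts, 3 counts over its libraries served as the floor, which covers counting error only. Libraries are pools, and errors measure the spread between pools. Alternatives were RLE size factors, no filter, the likelihood ratio test, DESeq2 1.42.0, all 8 libraries of a species, and fits without 1 library. Correlations over tested members alone and bounds without the library of most counts were added after seeing the data. Tables and figures were made in Python 3.11.15 (NumPy 2.4.6, pandas 2.3.3, matplotlib 3.10.9).

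The members, the classes and the other gene lists were chosen with earlier results of these data known. Contigs named with full values are the 5 members of highest mean CPM in each species, the highest contig of each protein found in 3 or more species, the 2 highest and the 2 lowest log2 fold changes among members of at least 1 CPM, and every member of a class of at most 3 contigs; other contigs are named as examples. The count of reads in a contig depends on the length and depth of the assembly, which was built from the same libraries. No contig or protein sequences were used here.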

Additional observations from a re-analysis of the deposited data

Results flagged for a closer look

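Groups of 4 libraries were examined for part of the members, 36 groups in all. Groups of 1 species share libraries and are not independent. In 4 of the 36 groups a library's gap to the nearest other exceeded Dixon's critical share of the range, where chance gives about 1 in 20 groups. These were glutamyl aminopeptidase c931 of T. ambiguus in forager library BR_690 (8.44 CPM, the lowest) and again in defender library DR_695 (6.29 CPM, the highest), aminopeptidase N L440_43134 of T. americanus in BR_436 (4.47 CPM, the highest) and aminopeptidase N c1073 of T. pilagens in BR_680 (288 CPM, the lowest).

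For 4 pairs of contigs that matched 1 record, the states did not overlap in either species and differed in opposite directions. All kept raiding libraries of the slavemaker lay below its non-raiding ones, and all kept defender libraries of the host lay above its foragers. Lack of overlap follows from the choice of the members by the study's calls, which also favours large fold changes. Over all tested contigs, 4.97% in T. duloticus and 9.47% in T. pilagens were lower without overlap. In T. longispinosus 5.22% and in T. ambiguus 2.83% were higher without overlap. The difference between slavemaker and host log2 fold changes was −4.10 for leukotriene A-4 hydrolase c2342 of T. duloticus against c10687 of T. longispinosus, and −3.22 against c21984 of T. ambiguus. It was −5.30 for leukotriene A-4 hydrolase L420_10264 of T. duloticus against c7743 of T. ambiguus, and −3.02 for aminopeptidase N c1073 of T. pilagens against c9621 of T. ambiguus. The differences were not tested, since each species has an assembly and a fit of its own.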

How the results depend on the processing

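No direction of a member turned under any alternative in which it was tested. The number of members called in T. americanus was 1 with the quasi-likelihood test, 4 with DESeq2, with the likelihood ratio test and with the likelihood ratio test without filter, and 2 with all 8 libraries. In T. duloticus it was 1, against 5 with DESeq2, 6 with the likelihood ratio test and 4 without filter as well. In T. longispinosus 0 became 5 with DESeq2, 5 with the likelihood ratio test and 6 without filter as well, and in T. ambiguus 0 became 10, 9 and 11. The median log2 fold change in T. pilagens was −0.56, and −1.20 without filter with either edgeR test, as the 4 contigs of low counts then entered. Leaving out 1 library at a time, calls ranged from 0 to 1 in T. americanus, 0 to 1 in T. duloticus and 3 to 6 in T. pilagens, and stayed at 0 in T. longispinosus and T. ambiguus. The medians ranged from −1.60 to −1.19, from −1.10 to −0.78, from −1.25 (without DR_686) to −0.53 (without BR_683), from 2.97 to 4.04 and from 2.40 to 3.07 in the same order. The T. pilagens median was −1.16, −1.15 and −1.25 without DR_684, DR_685 and DR_686, when 15 members were tested in place of 11. Aminopeptidase N c31765, serine carboxypeptidase c4110 and insulin-degrading enzyme-like c8538 of T. pilagens were called in all 7 such fits, c1073 in 4 of 7, c2290 of T. americanus in 4 of 7 and c7824 of T. duloticus in 5 of 8. In slavemakers the fits with the fewest called members also called fewer contigs in all, as given above. The side taken by removed libraries (27 of 32) was the same with library totals, and the median correlation of members within states was 0.44 by Pearson, 0.33 by Spearman and 0.43 over tested members alone, an alternative chosen after seeing the data. T. curvispinosus, with 0 members, gives no value under any setting. No paired analysis was possible because the labels do not say which library of one state shares colonies with which library of the other. Host members of few counts, 3 or fewer libraries in some states, names limited to contigs the study called and contigs that may be parts of 1 gene limit all values.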
